A study of Caenorhabditis elegans with 6 samples.

Results

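The genes described here build the eggshell of the *Caenorhabditis elegans* embryo or act at egg activation, the step by which a fertilized oocyte becomes an embryo. They were chosen by name as *cbd-1*, *perm-2*, *perm-4*, *cpg-1*, *cpg-2*, *chs-1*, *egg-1*, *egg-2* and *egg-3*, and all 9 were found among the 19933 genes of the deposited table. RNA-seq was done on embryos of wild-type (strain N2) hermaphrodites fed either *pri-1* RNAi, that is bacteria making double-stranded RNA against the gene of a DNA primase subunit, or empty vector (EV) RNAi, the negative control. Each group had 3 libraries of total RNA. RNA came from the eggs that remained on the plates once other worms had been rinsed away, 96 h after feeding began with synchronized L1 larvae (20°C). Each library is therefore a pool of embryos whose ages are not given, and in such bulk samples fewer young embryos and less RNA per embryo cannot be told apart. The study reports that eggs of mothers fed *pri-1* RNAi do not hatch and arrest early, before morphogenesis. The groups may therefore also differ in embryo stage, and the part of stage was not tested. The study calls its replicates experiments, while the labels do not say whether they came from separate cultures, so that p-values measure the spread between these libraries, which may be partly technical.

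The eggshell is laid down in layers soon after fertilization, from proteins that the oocyte has already made. CBD-1, PERM-2 and PERM-4 belong to the outermost vitelline layer, the chitin synthase CHS-1 makes the polymer of the layer below, and the chondroitin proteoglycans CPG-1 and CPG-2 are released from cortical granules to form a further layer. EGG-1 and EGG-2 are membrane proteins of the oocyte surface that are needed for the entry of sperm, and EGG-3 is a cortical scaffold that holds CHS-1 and the kinase MBK-2 until egg activation. The RNAs of these genes are made in the germline of the mother, and embryos inherit them.

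The RNAi target *pri-1* had 28.6, 28.7 and 24.3 CPM in *pri-1* RNAi embryos, against 41.2, 47.2 and 26.9 CPM in EV embryos. Only EV replicate 3 was below the highest *pri-1* RNAi library, and the log2 fold change of -0.46 (standard error, SE, 0.29) did not pass (limma adjusted p = 0.285).

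In WBcel235, the genome build that the authors used, *perm-4* (chromosome IV, 1121494 to 1125107, minus strand) and *perm-2* (1126790 to 1128865, plus strand) are neighbours that point away from each other, with 1682 bases and no protein-coding gene between them. *cbd-1* lies far from them on chromosome IV (11372991 to 11377627). *cpg-1*, *egg-1*, *egg-2* and *cpg-2* are on chromosome III, at 4489359 to 4491392, 5728180 to 5730159, 7058527 to 7060583 and 7102092 to 7103990. *egg-3* is on chromosome II (10882408 to 10884441) and *chs-1* on chromosome I (7554855 to 7559916). The exons of *chs-1* share 5 of their 4293 bases with those of *T25G3.3* on the same strand. On the other strand, *perm-2* shares 25 exon bases with *C44B12.6*, *egg-1* 42 with *B0244.9* and *egg-3* 21 with *lurp-1*. *B0244.9* had at most 0.369 CPM and did not pass the filter on low values.

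None of the 9 genes passed the test between *pri-1* RNAi and EV embryos. The test was limma on log2(CPM + 0.5), where CPM (counts per 1000000) express a gene's reads as a part of its library, with Benjamini-Hochberg adjustment over 14801 genes and a threshold of 0.05. Over all tested genes 27.3% passed, 63.5% of them as higher in *pri-1* RNAi, a share that was 46.9% with trimmed-mean scaling of the libraries and 49.2% with quantile normalization. The median log2 fold change of the 9 genes was 0.61, against -0.01 over all tested genes, with 6 above 0 and 3 below, and 49.7% of tested genes were above 0. *chs-1* and *egg-3* had an unadjusted p-value under 0.05 (0.0370 and 0.0475 from limma), as did 39.5% of tested genes. Only *egg-3* had no overlap between the groups, with *pri-1* RNAi higher. Over all tested genes 45.2% had no overlap, and 25.4% had none with *pri-1* RNAi higher.

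The EV libraries differed far more from each other than the *pri-1* RNAi libraries did. The 9 genes together summed to 94.2, 63.4 and 86.7 CPM in *pri-1* RNAi replicates 1, 2 and 3, against 202, 18.99 and 44.0 CPM in EV replicates 1, 2 and 3. EV replicate 1 was the highest EV library for all 9 genes, whereas it was the highest for 24.8% of tested genes. EV replicate 2 was the lowest EV library for 8 of them, and EV replicate 3 for *chs-1*. The log2 range over the 3 libraries of a group had a median of 0.60 over the 9 genes in *pri-1* RNAi and of 3.12 in EV embryos, against 0.56 and 0.85 over all tested genes. The widest EV ranges were those of *perm-4* and *perm-2*, 4.35 and 4.24, and 0.162% and 0.182% of tested genes had a range as wide. Counting error was small beside this spread, because the recovered library totals were 122751288 to 162069414 reads and the lowest value, *perm-2* in EV replicate 2, corresponded to 55 reads.

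**Figure D1:**
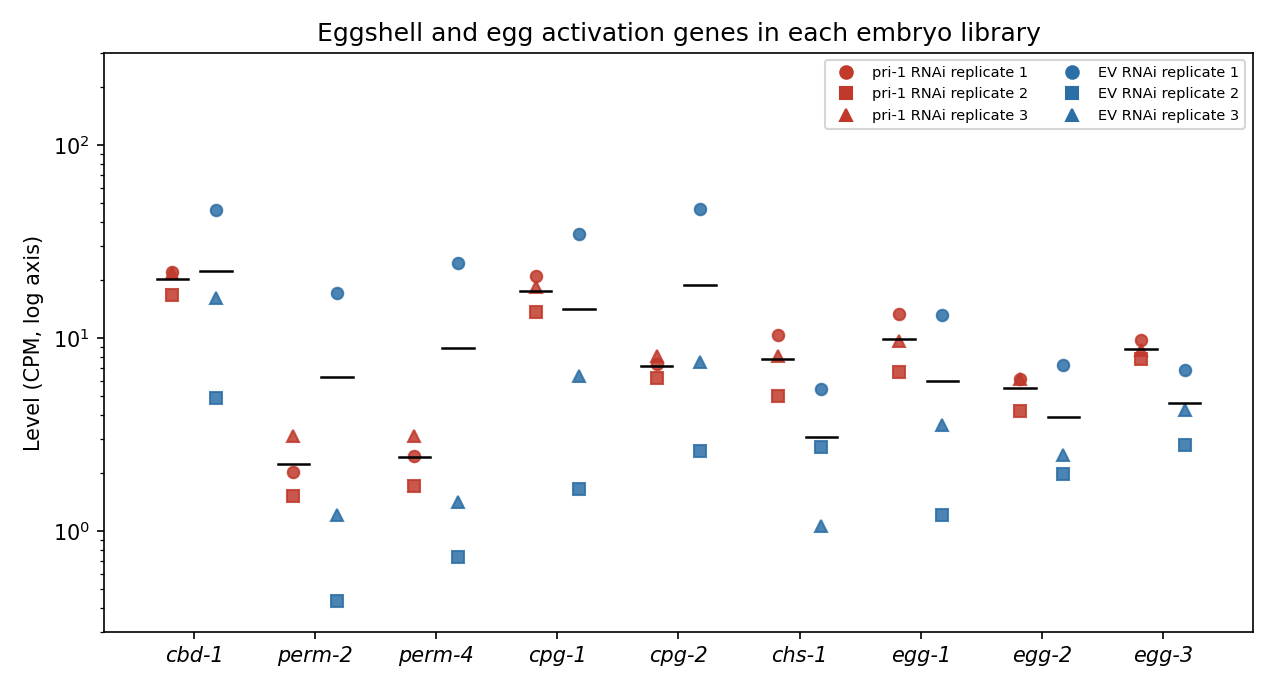
Level of each gene in CPM (log axis) in the 3 *pri-1* RNAi libraries (red, left) and the 3 EV RNAi libraries (blue, right), with symbols for the replicate number and black lines at the group means. The red points of a gene lie close together, while EV replicate 1 (blue circle) is the highest EV library for all 9 genes and EV replicate 2 (blue square) the lowest for 8.

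Among the genes of the outer layer, *cbd-1* (WBGene00010351), whose product has chitin-binding domains, had 22.04, 16.8 and 21.6 CPM in *pri-1* RNAi, against 46.1, 4.88 and 16.2 CPM in EV embryos. All *pri-1* RNAi values lay between those of EV replicates 1 and 3. The means were 20.1 ± 2.93 CPM in *pri-1* RNAi and 22.4 ± 21.3 CPM in EV embryos (SD, n = 3 each). The difference of 0.35 (SE 0.70) on the log2 scale did not exceed the replicate spread (limma adjusted p = 0.757), with a 95% interval of -1.29 to 1.98. It was 1.11 without EV replicate 1 and -0.44 without EV replicate 2, and passed in neither fit.

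*perm-2* (WBGene00016636) and *perm-4* (WBGene00016638), genes of proteins that are needed to make the egg impermeable, had almost the same profile over the 6 libraries. *perm-2* had 2.01, 1.52 and 3.12 CPM in *pri-1* RNAi, against 17.1, 0.431 and 1.21 CPM in EV embryos. *perm-4* had 2.46, 1.71 and 3.10 CPM in *pri-1* RNAi, against 24.5, 0.729 and 1.42 CPM in EV embryos. For both genes EV replicate 1 was far above the 5 other libraries, and EV replicates 2 and 3 were below every *pri-1* RNAi library. EV replicate 1 was 39.7 times EV replicate 2 for *perm-2* and 33.6 times for *perm-4*, and the highest *pri-1* RNAi library was 2.06 and 1.81 times the lowest. The ratio of *perm-2* to *perm-4* was 0.818, 0.888 and 1.01 in *pri-1* RNAi, against 0.6996, 0.591 and 0.853 in EV embryos. Their log2 fold changes were -0.20 (SE 0.99, limma adjusted p = 0.902) and -0.44 (SE 1.03, adjusted p = 0.790). The 95% intervals were -2.50 to 2.09 and -2.83 to 1.95. Without EV replicate 1 both were above 0, at 1.06 and 0.90, and neither passed (adjusted p = 0.146 and 0.176 from limma). *C44B12.6*, which overlaps *perm-2* on the other strand, had 5.38, 3.62 and 6.86 CPM in *pri-1* RNAi, against 0.448, 0.502 and 0.359 CPM in EV embryos. It was higher in *pri-1* RNAi (log2 fold change 2.59, limma adjusted p = 0.00136). Whether reads of this overlap add to *perm-2* was not tested.

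Of the chondroitin proteoglycan genes, *cpg-1* (WBGene00000465) had 20.9, 13.6 and 18.4 CPM in *pri-1* RNAi, against 34.5, 1.66 and 6.37 CPM in EV embryos. *cpg-2* (WBGene00015102) had 7.32, 6.21 and 8.05 CPM in *pri-1* RNAi, against 46.8, 2.59 and 7.48 CPM in EV embryos. EV replicate 1 was again highest for both, but the *pri-1* RNAi libraries lay above EV replicates 2 and 3 for *cpg-1* and around EV replicate 3 for *cpg-2*. The log2 fold change of *cpg-1* was 1.15 (SE 0.90, limma adjusted p = 0.385, 95% interval -0.93 to 3.23). That of *cpg-2* was -0.46 (SE 0.89, limma adjusted p = 0.744, 95% interval -2.52 to 1.60). Without EV replicate 1 they were 2.21 (limma adjusted p = 0.0543) and 0.62 (adjusted p = 0.479). Without EV replicate 2 that of *cpg-1* was 0.20.

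*chs-1* (WBGene00000496), the chitin synthase gene expressed in the germline, had 10.3, 5.02 and 8.11 CPM in *pri-1* RNAi, against 5.47, 2.71 and 1.06 CPM in EV embryos. The groups overlapped only in that *pri-1* RNAi replicate 2 was below EV replicate 1. The means were 7.82 ± 2.66 CPM in *pri-1* RNAi and 3.08 ± 2.22 CPM in EV embryos (SD, n = 3 each). The log2 fold change of 1.37 (SE 0.54, 95% interval 0.11 to 2.63) was the highest of the 9 and did not pass over all genes (limma adjusted p = 0.102). It did pass with median centring of the libraries (1.58, limma adjusted p = 0.0188) and with quantile normalization (1.27, adjusted p = 0.0360), settings in which 30.2% and 34.0% of tested genes passed, and it did not with trimmed-mean scaling (1.18, adjusted p = 0.0557), in which 35.1% did. *T25G3.3*, with which *chs-1* shares those bases, was more abundant and higher in *pri-1* RNAi (log2 fold change 1.29, limma adjusted p = 0.0130), at 234.9, 147 and 196 CPM, against 73.9, 102 and 60.5 CPM in EV embryos. Whether reads of the overlap add to *chs-1* was not tested.

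The genes of the oocyte surface gave a similar picture. *egg-1* (WBGene00015083) had 13.3, 6.65 and 9.61 CPM in *pri-1* RNAi, against 13.1, 1.22 and 3.56 CPM in EV embryos. *egg-2* (WBGene00019811) had 6.14, 4.17 and 6.15 CPM in *pri-1* RNAi, against 7.28, 1.98 and 2.49 CPM in EV embryos. For both genes only EV replicate 1 reached the *pri-1* RNAi level. The log2 fold changes were 1.13 (SE 0.72, limma adjusted p = 0.289, 95% interval -0.55 to 2.81) and 0.61 (SE 0.49, adjusted p = 0.397, 95% interval -0.52 to 1.75). The 2 genes are paralogs with similar products, and their reads may be assigned to either. Their sum was therefore also fitted, after the data were seen. It was 19.4, 10.8 and 15.8 CPM in *pri-1* RNAi, against 20.4, 3.19 and 6.05 CPM in EV embryos, with a log2 fold change of 0.95 (SE 0.63, limma adjusted p = 0.303). Without EV replicate 2 the log2 fold change of *egg-1* was 0.43.

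*egg-3* (WBGene00009701), which encodes a member of the protein tyrosine phosphatase-like family that lacks activity, had 9.76, 7.80 and 8.62 CPM in *pri-1* RNAi, against 6.81, 2.80 and 4.24 CPM in EV embryos. The lowest *pri-1* RNAi value exceeded the highest EV value (p = 0.1 in an exact two-sided permutation test, which cannot give less with 3 libraries against 3). The means were 8.73 ± 0.983 CPM in *pri-1* RNAi and 4.62 ± 2.03 CPM in EV embryos (SD, n = 3 each). *egg-3* had the narrowest EV range of the 9 genes, and its log2 fold change was 0.92 (SE 0.39, limma adjusted p = 0.122, 95% interval 0.01 to 1.83). The separation also held with trimmed-mean scaling, where the groups did not overlap in 49.8% of tested genes. The log2 fold change of *egg-3* was smaller with that scaling, at 0.69 (SE 0.41, limma adjusted p = 0.222). The neighbour on the other strand, *lurp-1*, was lower in *pri-1* RNAi (log2 fold change -1.61, limma adjusted p = 0.0425).

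**Figure D2:**
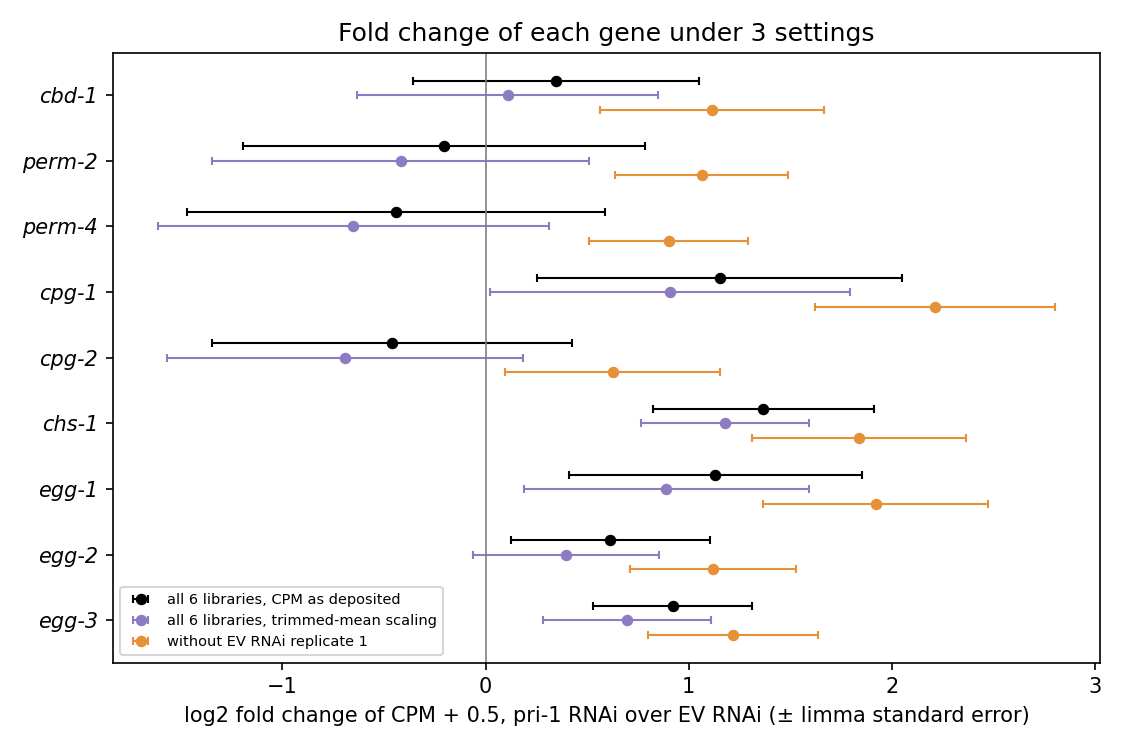
log2 fold change of CPM + 0.5 of each gene, *pri-1* RNAi over EV RNAi, with limma's standard error (SE) as bars, for all 6 libraries as deposited (black), all 6 with trimmed-mean scaling (purple) and without EV replicate 1 (orange). With all 6 libraries *perm-2*, *perm-4* and *cpg-2* lie below 0, and without EV replicate 1 all 9 genes lie above 0, with none passing the threshold.

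EV replicate 1 therefore set the direction of 3 of the 9 genes. Without it all 9 log2 fold changes were above 0, with a median of 1.12, and 51.8% of all tested genes were above 0. EV replicate 1 was the highest EV library for all 9 genes, and for 24.8% of tested genes. Leaving it out could therefore only raise the log2 fold changes of the 9. The counts without it partly follow from this choice of library and are not read as a result about the 9 genes. No gene of the 9 passed the threshold in that fit, in which 14.3% of all genes did, and 6 had an unadjusted p-value under 0.05, as did 31.3% of all genes. In 8 of them, all but *cpg-2*, the *pri-1* RNAi libraries lay above EV replicates 2 and 3, and over all genes 48.5% had no overlap in either direction. With trimmed-mean scaling the 8 became 5 (*cpg-1*, *chs-1*, *egg-1*, *egg-2* and *egg-3*), and 52.8% of all genes had no overlap. *chs-1* then passed with a log2 fold change of 1.60 (limma adjusted p = 0.0232), where 22.2% of all genes passed, and with median centring in its place (1.99, adjusted p = 0.0130), where 18.0% did. The fits that combine a left-out library with another scaling were added after the data were seen.

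The libraries also differed in genes that were listed as markers of other material or other stages. The 6 vitellogenin genes, which encode yolk proteins and are expressed in the intestine of the adult, summed to 21.0, 16.7 and 61.3 CPM in *pri-1* RNAi, against 782, 13.0 and 103 CPM in EV embryos. EV replicate 1 was the highest EV library for all 7 genes of the adult list, which adds the adult cuticle collagen gene *col-19*, and for all 15 oocyte-made maternal RNAs, which summed to 434, 302 and 400.3 CPM in *pri-1* RNAi, against 284, 105 and 131 CPM in EV embryos. Much of the *pri-1* RNAi sum came from *mex-3*, and without it the other 14 summed to 201, 149 and 168 CPM in *pri-1* RNAi, against 241, 74.4 and 102 CPM in EV embryos, so that the groups overlapped. None of the 7 adult genes passed the test, all 7 were below 0 and the median log2 fold change was -2.03, with *vit-4* at -2.76 (limma adjusted p = 0.167), *vit-2* at -2.23 (adjusted p = 0.248) and *col-19* at -0.75 (adjusted p = 0.218). Without EV replicate 1 the median was -0.60, 6 of the 7 were below 0 and *vit-4* was at -1.28, *vit-2* at -0.84 and *vit-3* at 0.51. Without EV replicate 2 the median was -3.39 and all 6 vitellogenin genes passed as lower, with *vit-4* at -4.27 and *vit-2* at -3.57. In that fit 1350 of 14619 tested genes passed as lower and 2862 as higher. EV replicate 2 was the lowest EV library for 6 of the 7 adult genes, so that leaving it out could only lower the log2 fold changes of those 6. With quantile normalization *col-19* passed as lower (limma adjusted p = 0.0345). The 10 muscle genes listed for the late embryo summed to 2781, 6215 and 4282 CPM in *pri-1* RNAi, against 8358, 4421 and 10058 CPM in EV embryos. Whether these genes mark embryo age alone was not tested. All 10 were below 0, with a median of -0.83, and *mup-2* passed as lower (log2 fold change -1.02, limma adjusted p = 0.0466), while *tnt-2* (-1.31, adjusted p = 0.0619) and *lev-11* (-1.31, adjusted p = 0.0625) did not. *mup-2* passed in 1 of 6 fits that each left out 1 library (without EV replicate 2). It did not pass with trimmed-mean scaling (limma adjusted p = 0.129) or median centring (0.356), and with quantile normalization both it (0.0102) and *lev-11* (0.0185) passed. The part of embryo age or adult material in the levels of the eggshell genes was not tested.

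**Figure D3:**
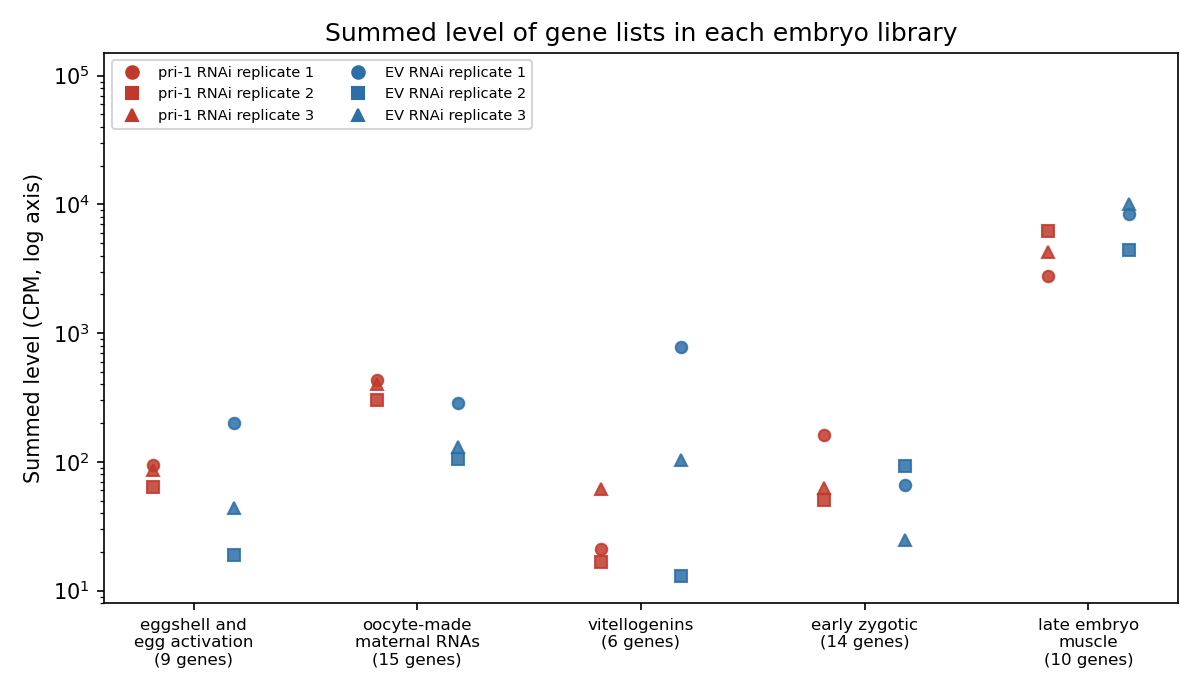
Summed level in CPM (log axis) of the 9 eggshell and egg activation genes and of 4 gene lists in the 3 *pri-1* RNAi libraries (red, left) and the 3 EV RNAi libraries (blue, right). EV replicate 1 (blue circle) is highest for the 9 genes, at 202 CPM, and for the vitellogenins, at 782 CPM.

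Ratios between 2 genes of the same library do not change when a library is multiplied by a factor, as in trimmed-mean scaling, and were compared after the values had been seen. Of the 36 pairs of the 9 genes, the ratio did not overlap between the groups in 9, or 25%, against 50.7% of all pairs of tested genes, so that the number of such pairs was not high. The clearest was *cpg-1* to *cpg-2*, at 2.85, 2.18 and 2.28 in *pri-1* RNAi, against 0.737, 0.639 and 0.852 in EV embryos. EV replicates 1 and 2, which differed 18.1-fold in *cpg-2*, had nearly the same ratio. On the log2(CPM + 0.5) scale the difference was 1.61, with an SD of 0.20 in *pri-1* RNAi and of 0.16 in EV embryos (n = 3 each; exact two-sided permutation test, p = 0.1, adjusted p = 0.4 over the 36 pairs). With a library left out it was between 1.49 and 1.70. In 40.6% of all pairs of tested genes the ratio did not overlap and differed by at least 1 on this scale, and 6 of the 36 pairs did so.

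Of the 9 pairs that did not overlap, 6 set *cpg-1* or *egg-1* against *perm-2*, *perm-4* or *cpg-2*, and 3 set *cbd-1* against *cpg-1*, *egg-1* or *cpg-2*. *cpg-2* to *egg-1* was 0.552, 0.935 and 0.838 in *pri-1* RNAi, against 3.57, 2.13 and 2.10 in EV embryos. *perm-4* to *cpg-1* was 0.118, 0.126 and 0.169 in *pri-1* RNAi, against 0.711, 0.441 and 0.222 in EV embryos. *cbd-1* to *cpg-1* was 1.06, 1.24 and 1.18 in *pri-1* RNAi, against 1.34, 2.95 and 2.54 in EV embryos. The groups overlapped for *cpg-1* to *egg-1* and for each pair among *perm-2*, *perm-4* and *cpg-2*. Over the 6 libraries Pearson's r of log2(CPM + 0.5) was 0.99 between *perm-2* and *perm-4*, 0.98 between *perm-4* and *cpg-2*, 0.99 between *cpg-1* and *egg-1* and 0.23 between *cpg-2* and *chs-1*, a description of 6 points that share the scaling of their library. Without EV replicate 2, 23 of the 36 ratios did not overlap, and between 9 and 13 did not with any other library left out. With fewer libraries an overlap is less likely for any pair. The share over all pairs of tested genes was not computed for these settings, so the 23 is not read as a trait of these genes.

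**Figure D4:**
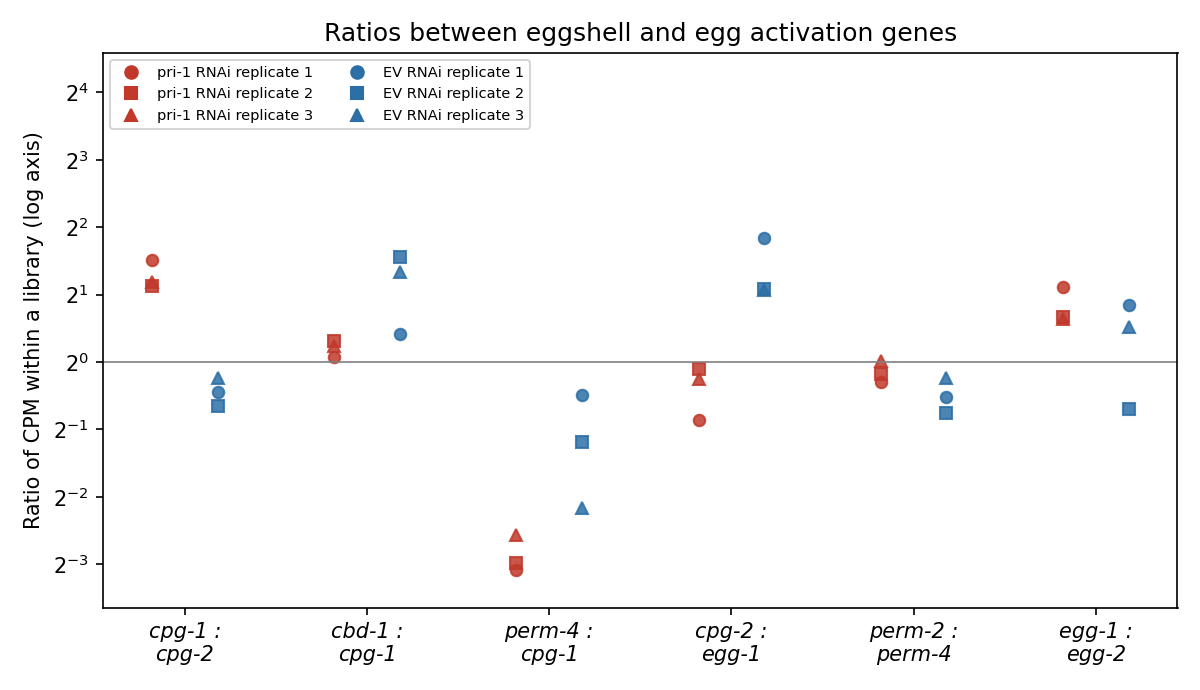
Ratio of the CPM of 2 genes within a library (log axis, base 2) for 6 pairs, in the 3 *pri-1* RNAi libraries (red, left) and the 3 EV RNAi libraries (blue, right). The ratio of *cpg-1* to *cpg-2* is above 2 in all *pri-1* RNAi and below 1 in all EV libraries, while the groups overlap for *perm-2* to *perm-4* and for *egg-1* to *egg-2*.

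Levels of different genes were compared per kilobase of the longest annotated transcript. In *pri-1* RNAi embryos *cpg-1* had the highest level, 9.32 ± 1.97 CPM per kilobase (SD, n = 3), followed by *egg-1* (5.48 ± 1.85). *egg-1*, *egg-3* (4.86 ± 0.548), *cbd-1* (4.77 ± 0.695) and *cpg-2* (4.18 ± 0.537) did not differ from one to the next beyond their spread, whereas every *cpg-2* value was above every value of the gene after it, *egg-2*. *egg-2* (3.11 ± 0.645), *perm-2* (3.01 ± 1.11), *perm-4* (2.19 ± 0.630) and *chs-1* (1.82 ± 0.621) came last, and *perm-2*, *perm-4* and *chs-1* each differed from the one before by less than the larger SD of the pair. *cpg-1* was first in each *pri-1* RNAi library. Compared within libraries, *cbd-1* was above *cpg-2*, and *perm-2* above *perm-4*, in all 3 *pri-1* RNAi libraries. The order of *egg-1* and *egg-3*, *egg-3* and *cbd-1*, *egg-2* and *perm-2*, and *perm-4* and *chs-1* changed between those libraries. In EV embryos *cpg-2* was first in replicates 1 and 3, at 27.1 and 4.34 CPM per kilobase, and *egg-3* in replicate 2, at 1.56 CPM per kilobase, and *chs-1* was last in replicates 1 and 3.

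The 5 genes most like the mean profile of the 9, by Pearson's r over the 6 libraries among the 10197 genes averaging 5 CPM or more, were *puf-5* (0.99), *vab-1* (0.99), *rme-2* (0.98), *der-2* (0.98) and *C37H5.13* (0.98). *rme-2* encodes the yolk receptor of the oocyte and *puf-5* an RNA-binding protein of the oocyte. *puf-5* had 6.72, 5.89 and 7.89 CPM in *pri-1* RNAi, against 17.9, 1.44 and 3.67 CPM in EV embryos. *rme-2* had 7.68, 7.77 and 8.90 CPM in *pri-1* RNAi, against 19.7, 2.49 and 4.44 CPM in EV embryos. As for *cbd-1*, *perm-2*, *perm-4*, *cpg-1* and *egg-2*, all *pri-1* RNAi values of both lay between EV replicates 1 and 3. *vab-1*, *der-2* and *C37H5.13* followed the same order over a much narrower span, with EV replicate 1 at most 1.51 times EV replicate 2.

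Other genes of egg activation were taken from a list of 14, of which 12 were in the table and 11 passed the filter on low values. *spe-11*, a sperm-supplied factor of egg activation, did not pass it, with at most 0.255 CPM. Of these, 1 was higher and 0 were lower, with a median log2 fold change of 0.40, and over all tested genes 17.3% were higher and 9.94% lower. The higher gene was *egg-4*, which with its near copy *egg-5* encodes an inactive phosphatase that holds MBK-2 in check. *egg-4* had 84.6, 56.4 and 89.5 CPM in *pri-1* RNAi, against 9.06, 3.10 and 6.37 CPM in EV embryos. Its log2 fold change was 3.62 (SE 0.42, limma adjusted p = 0.00121), and it passed in each of the 6 fits that left out 1 library and with each of 3 other scalings. *egg-5* had 8.30, 10.001 and 11.8 CPM in *pri-1* RNAi, against 12.1, 3.26 and 4.82 CPM in EV embryos, with a log2 fold change of 0.72 (limma adjusted p = 0.316). As their reads may be assigned to either copy, the sum was fitted as well, after the data were seen. It was 92.9, 66.4 and 101 CPM in *pri-1* RNAi, against 21.1, 6.35 and 11.2 CPM in EV embryos (log2 fold change 2.84, SE 0.43, limma adjusted p = 0.00336). The caveolin gene *cav-1*, a marker of cortical granules, and *mat-3*, a subunit gene of the anaphase-promoting complex, had log2 fold changes of 0.54 (limma adjusted p = 0.0985) and 0.49 (adjusted p = 0.162).

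Of 11 further genes of the eggshell and its lipid permeability barrier, 1 was higher and 0 were lower, with a median of 0.16. The shares over all tested genes were 17.3% higher and 9.94% lower. *cyp-31A3*, a cytochrome P450 gene of the barrier, had 13.0, 9.41 and 12.6 CPM in *pri-1* RNAi, against 5.12, 3.47 and 2.95 CPM in EV embryos (log2 fold change 1.502, SE 0.35, limma adjusted p = 0.0178). The call was lost without *pri-1* RNAi replicate 1 (adjusted p = 0.105) and without *pri-1* RNAi replicate 3 (adjusted p = 0.142). Summed with its near copy *cyp-31A2*, in a fit added after the data were seen, the log2 fold change was 1.24 (limma adjusted p = 0.0472). This sum was not fitted with a library left out. *dgtr-1*, an acyltransferase gene, and *emb-8*, which encodes the reductase of cytochromes P450, had log2 fold changes of 0.98 (limma adjusted p = 0.116) and -0.38 (adjusted p = 0.209).

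The 9 genes of chondroitin synthesis, which make the sugar chains that CPG proteins carry, had a median log2 fold change of -0.41. Of them 1 was lower and 0 were higher, against 9.94% and 17.3% of all tested genes. *sqv-2*, which encodes a galactosyltransferase of the linker between protein and chain, had 8.86, 11.9 and 11.4 CPM in *pri-1* RNAi, against 19.2, 22.1 and 21.3 CPM in EV embryos (log2 fold change -0.94, limma adjusted p = 0.0443). It passed in 1 of the 6 fits that left out 1 library (without EV replicate 3) and had limma adjusted p-values between 0.0731 and 0.203 in the other 5. It passed with trimmed-mean scaling (limma adjusted p = 0.0338) and did not pass with median centring (adjusted p = 0.159) or quantile normalization (adjusted p = 0.151). *sqv-5*, the chondroitin synthase gene, had 114, 65.6 and 82.7 CPM in *pri-1* RNAi, against 56.2, 49.9 and 38.9 CPM in EV embryos, and a log2 fold change of 0.83 (limma adjusted p = 0.0625). It passed as higher with median centring (0.0315) and quantile normalization (0.0214). *sqv-7*, a nucleotide sugar transporter gene, had a log2 fold change of -0.92 (limma adjusted p = 0.157) and passed as lower with trimmed-mean scaling (0.0132).

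Of 7 other genes named *cpg*, 5 were in the table and were tested, with a median of -0.12. Of these 1 was higher and 1 lower, against 17.3% and 9.94% of all tested genes. *cpg-7* fell to 25.4, 79.1 and 39.99 CPM in *pri-1* RNAi, against 150, 131 and 144 CPM in EV embryos (log2 fold change -1.70, SE 0.39, limma adjusted p = 0.0166). *cpg-9* was higher, at 2.28, 2.17 and 3.15 CPM, against 0.774, 1.33 and 0.587 CPM in EV embryos (log2 fold change 1.14, limma adjusted p = 0.0279). *cpg-7* lost its call without EV replicate 1 (adjusted p = 0.0692) and without *pri-1* RNAi replicates 1 (0.0682) or 3 (0.112), and *cpg-9* without EV replicate 1 (0.108), without each *pri-1* RNAi replicate (0.0760 to 0.193) and with quantile normalization (0.0943). *cpg-4* had a log2 fold change of 1.09 (limma adjusted p = 0.0612), its groups did not overlap, and it passed as higher with median centring (0.0172) and quantile normalization (0.0248). Unlike the 9 eggshell and egg activation genes, *cpg-7* was even over the EV libraries.

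Among 15 other maternal RNAs made in the oocyte, 2 were higher and 1 was lower, against 17.3% and 9.94% of all tested genes, with a median of 0.46. *mex-3*, which encodes an RNA-binding protein of the early embryo, had 233, 153 and 233 CPM in *pri-1* RNAi, against 43.9, 30.9 and 29.3 CPM in EV embryos (log2 fold change 2.55, SE 0.27, limma adjusted p = 0.000911). It passed in each of the 6 fits that left out 1 library. *oma-1*, a regulator of oocyte maturation, had 19.4, 12.3 and 18.6 CPM in *pri-1* RNAi, against 11.2, 2.75 and 3.01 CPM in EV embryos (log2 fold change 1.73, limma adjusted p = 0.0494), and *nos-2*, a Nanos-related gene of germ cells, had 3.19, 3.57 and 1.29 CPM in *pri-1* RNAi, against 11.8, 5.87 and 9.01 CPM in EV embryos (log2 fold change -1.60, adjusted p = 0.0344). *oma-1* passed only without EV replicate 1 among the 6 fits that left out 1 library (adjusted p between 0.0668 and 0.211 in the others), and *nos-2* only without EV replicate 2 and without EV replicate 3 (0.0651 to 0.201 in the others). *nos-2* did not pass with median centring (limma adjusted p = 0.0622).

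**Figure D5:**
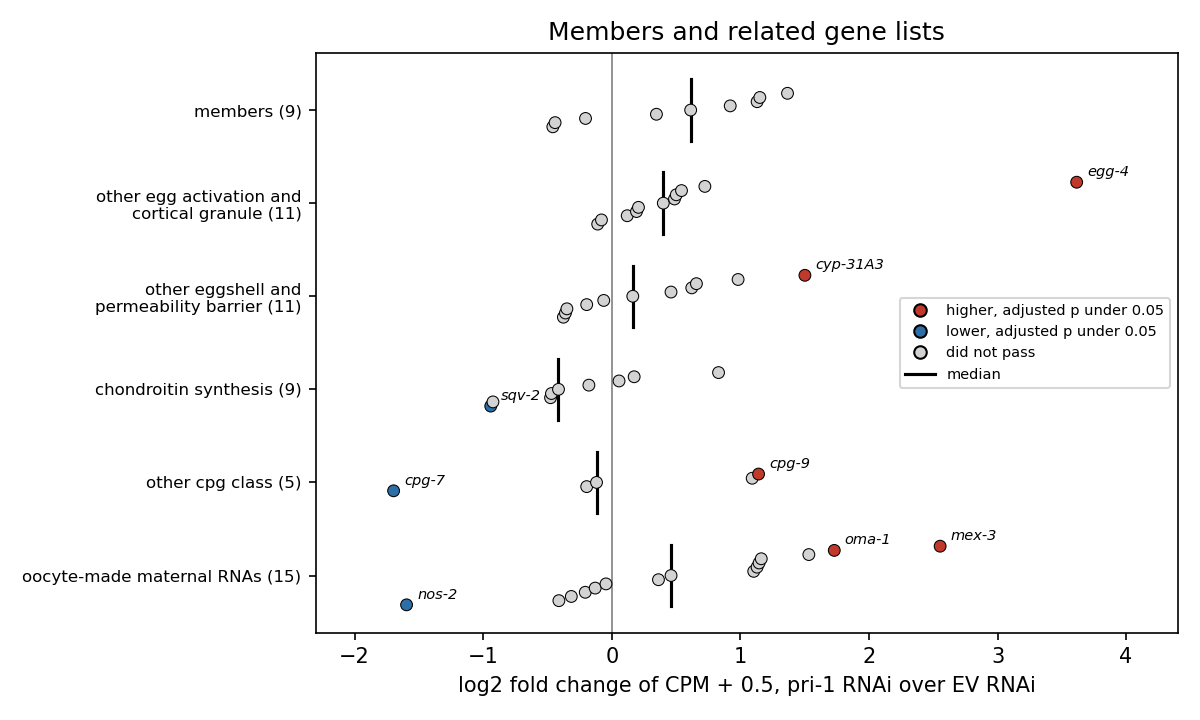
log2 fold change of CPM + 0.5, *pri-1* RNAi over EV RNAi, of the 9 eggshell and egg activation genes (members) and of the tested genes of 5 related lists, with a black line at each median. Red and blue points passed an adjusted p under 0.05 from limma, and none of the 9 genes did, while *egg-4*, *mex-3*, *oma-1*, *cyp-31A3* and *cpg-9* were higher and *cpg-7*, *nos-2* and *sqv-2* lower.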

How the data were processed

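Total RNA of 6 embryo libraries (3 per group) was sequenced with 150 bp paired reads. The authors trimmed reads with Trimmomatic 0.36, quantified them with Salmon 1.4.0 against WBcel235, summed them to genes with tximport and tested counts with edgeR 3.32.1, and the deposited table holds CPM per gene. Totals recovered from the steps of the low values were 122751288 to 162069414 reads, so that 3 reads were 0.0185 to 0.0244 CPM. Because 94.3% to 95.6% of low values (up to 20 reads) came within 0.05 of a whole read, and the steps were not accepted as whole reads in 2 libraries, no count test was run here.

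Values were analysed as log2(CPM + 0.5), which understates changes of low genes, over genes that reached 0.5 CPM in 3 or more libraries (14801 of 19933), with limma 3.58.1 (eBayes with trend, R 4.3.3), Benjamini-Hochberg adjustment and a threshold of 0.05. Single values were compared by exact permutation tests. Scripts were tested on simulated data. Python 3.11.15, numpy 2.4.6, pandas 2.3.3 and matplotlib 3.10.9 were used. The 9 genes and all lists were chosen with earlier results of these data known. All 9 genes, *pri-1*, up to 3 genes per list with the smallest p-value and the 5 genes most like the mean profile are named, and overlapping or near-identical genes were named beside them. Pseudocount, filter, scaling, blocks and left-out libraries were varied.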

Additional observations from a re-analysis of the deposited data

How the results depend on the processing

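Of 160 log2 fold changes of the 9 genes under alternatives, 140 kept their direction and side of the threshold, 8 passed the threshold and 12 reversed. Without EV replicate 1, *perm-2*, *perm-4* and *cpg-2* reversed to 1.06, 0.90 and 0.62, to 0.78, 0.62 and 0.32 with trimmed-mean scaling as well, and to 1.22, 1.06 and 0.78 with median centring as well. *cbd-1* reversed to -0.44 without EV replicate 2, and *perm-2* to 0.0073 with median centring. Of the 9 genes, 1 was higher (*chs-1*) with median centring (1.58), with quantile normalization (1.27), and without EV replicate 1 with either trimmed-mean scaling (1.60) or median centring (1.99), the last 2 added after the data were seen. With 1 library left out no gene of the 9 passed, and the log2 fold changes ranged from -0.44 to 1.11 for *cbd-1*, -1.06 to 1.06 for *perm-2*, -1.27 to 0.90 for *perm-4*, 0.20 to 2.21 for *cpg-1*, -1.34 to 0.62 for *cpg-2*, 0.87 to 1.84 for *chs-1*, 0.43 to 1.92 for *egg-1*, 0.29 to 1.12 for *egg-2* and 0.64 to 1.22 for *egg-3*. Pairs of genes whose ratio did not overlap numbered 23 without EV replicate 2, against 9 with all 6 libraries, and the share over all pairs was not computed without that library. The cause of these changes was not tested.

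Same-numbered libraries of the titles did not deviate together (r of 0.04, -0.32 and 0.46), and with that replicate block 0 of the 9 genes passed (2110 genes higher and 1043 lower, against 2564 and 1471). A block on the number in the library names gave 1 higher (*chs-1*, 1.34) and 3 lower (*perm-2* -1.29, *perm-4* -1.44, *cpg-2* -1.42), and turned *cbd-1* to -0.50. That fit had 1 residual degree of freedom and 2 pairs, which for *perm-2* differed by -2.81 and 0.24 and for *perm-4* by -3.08 and 0.21, so these calls are not read as changes. Such numbers are shared by EV replicate 1 with *pri-1* RNAi replicate 1, and by EV replicate 3 with *pri-1* RNAi replicate 2.

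Over all genes, 3810 were higher and 1445 lower with no filter, 1059 and 1088 with a mean of at least 5 CPM (where *perm-2* and *egg-2* were not tested), and 2438 and 2761 with trimmed-mean scaling. Quantile normalization gave 2473 and 2552, and left-out libraries between 295 and 2862 higher and between 26 and 2955 lower. Trimmed-mean scaling moved the median log2 fold change of all genes by -0.21 and median centring by 0.21. The edgeR and DESeq2 alternatives were not run. The lowest value of the 9 genes corresponded to 55 reads, and EV libraries differed by up to 4.35 on the log2 scale.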

Other observations

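Genes of sperm were also measured in these embryo libraries. Of 37 sperm genes in the table, 5 passed the filter on low values, and 3 of these were higher in *pri-1* RNAi and 0 lower, against 17.3% and 9.94% of all tested genes. All of the 5 but *gsp-4* reached 0.5 CPM in fewer than 3 EV libraries. Those genes passed the filter only through their *pri-1* RNAi values, so the 3 calls are not weighed against that share. *fer-1*, which encodes a ferlin of sperm membrane organelles, had 22.03, 9.24 and 14.6 CPM in *pri-1* RNAi, against 0.953, 1.19 and 0.339 CPM in EV embryos (log2 fold change 3.55, limma adjusted p = 0.00170), and it passed in each of the 6 fits that left out 1 library. *spe-9*, which encodes a sperm surface protein needed for fertilization, had 3.16, 1.62 and 2.08 CPM in *pri-1* RNAi, against 0.741, 0.580 and 0.241 CPM in EV embryos (log2 fold change 1.44, limma adjusted p = 0.0137). It lost the call without *pri-1* RNAi replicate 1 (adjusted p = 0.0886) and without *pri-1* RNAi replicate 3 (0.105). *gsp-4*, a sperm phosphatase gene with the near copy *gsp-3*, had a log2 fold change of 0.88 (limma adjusted p = 0.0238), which passed only without EV replicate 3 among those fits (0.0542 to 0.207 in the others) and not with quantile normalization (0.552). The 37 genes summed to 39.8, 22.3 and 32.02 CPM in *pri-1* RNAi, against 18.9, 6.08 and 3.09 CPM in EV embryos. Without *fer-1* the other 36 summed to 17.8, 13.02 and 17.4 CPM in *pri-1* RNAi, against 17.97, 4.89 and 2.75 CPM in EV embryos, so that the groups overlapped. Of the 28 genes of the major sperm protein (*msp*) family among them, 22 overlapped between the groups, 5 were higher and 1 was lower without overlap, and 8 had a lower mean in *pri-1* RNAi. Over all tested genes 45.2% had no overlap, and 25.4% had none with *pri-1* RNAi higher. Only *msp-40* and *msp-59* of the *msp* genes passed the filter on low values and were tested.

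Of 14 genes first transcribed in the early embryo, 11 passed the filter, with 3 higher and 0 lower, against 17.3% and 9.94% of all tested genes, and a median log2 fold change of 0.44. These 3 genes, *sdz-1*, *end-3* and *tbx-37*, each reached 0.5 CPM in fewer than 3 EV libraries. They passed the filter only through their *pri-1* RNAi values, so the 3 calls are not weighed against that share. *sdz-38*, named after its values were seen, had a log2 fold change of -1.12 (limma adjusted p = 0.119) with groups that did not overlap, and it passed as lower with trimmed-mean scaling (0.0158), median centring (0.0452) and quantile normalization (0.0114). *sdz-1* had 21.9, 6.69 and 13.3 CPM in *pri-1* RNAi, against 0.391, 0.596 and 0.0783 CPM in EV embryos (log2 fold change 3.98, limma adjusted p = 0.00148), and passed in each fit that left out 1 library. *end-3*, a GATA factor gene of the endoderm, had 3.47, 1.60 and 2.49 CPM in *pri-1* RNAi, against 0.277, 0.392 and 0.0391 CPM in EV embryos. Its log2 fold change was 2.02 (limma adjusted p = 0.00400), and it was under the filter whenever a *pri-1* RNAi library was left out. *tbx-37*, a T-box gene, had a log2 fold change of 1.86 (limma adjusted p = 0.0105) and lost the call without *pri-1* RNAi replicate 1 (0.0659) or 3 (0.0942). The 14 genes summed to 160, 50.4 and 63.05 CPM in *pri-1* RNAi, against 66.1, 93.3 and 24.7 CPM in EV embryos, so that the sums overlapped.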
